A study of Mus musculus with 11 samples.

Results

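Sterol synthesis was followed through 7 genes, Hmgcs1, Idi1, Fdps, Fdft1, Sqle, Insig1 and Srebf2, taken by symbol from the 54532 genes of the table. All 7 were present once. In whole mouse hearts no member passed the test in any of the 3 comparisons, and the members did not share a single pattern across libraries. Hmgcs1 averaged 33.6 CPM in METTL3 hearts and 24.5 CPM in HFD+STZ hearts. Sqle averaged 1.54 CPM in HFD+STZ hearts and 3.29 CPM in chow hearts, and Srebf2 averaged 22.0 CPM in METTL3 hearts and 32.5 CPM in chow hearts. These were the member differences with an edgeR unadjusted p under 0.05, 1 of 6 tested members in each comparison. Beside them stood 9.06%, 12.1% and 21.7% of all genes, in the order given. Both differences from chow hearts moved when chow replicate 3, a library that stood apart, was left out. The log2 fold change went from -1.09 to -0.72 for Sqle and from -0.56 to -0.85 for Srebf2. CPM are the usual depth-normalised counts, here after scaling by the trimmed mean of M values (TMM).

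The libraries came from C57BL/6 whole hearts labelled with a time of 26 weeks. The group labelled HFD+STZ+AAV METTL3, called METTL3 here, held 4 libraries, the HFD+STZ group 4 and the Chow group 3. The labels do not spell out the abbreviations, which in this field commonly mean feeding rich in fat (HFD), streptozotocin, which destroys pancreatic beta cells (STZ), and a viral gene carrier (AAV). METTL3 is the catalytic subunit of the enzyme that writes N6-methyladenosine on messenger RNA. The labels name neither the promoter that drives METTL3 nor a control virus for the HFD+STZ and Chow groups, nor do they tell whether a library holds 1 heart. The series design names METTL3 overexpression against control as its question.

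Cholesterol is built from acetyl-CoA through mevalonate, isoprenoid diphosphates, squalene and lanosterol. The transcription factor SREBP2, encoded by Srebf2, switches on nearly every enzyme of this route when sterols in the endoplasmic reticulum run low. When sterols are plentiful, INSIG proteins hold SREBP2 and its escort SCAP in that membrane. The adult heart makes some cholesterol and also takes it up from lipoproteins.

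SREBP2 binds the sterol regulatory element, which contains TCACNCCA, usually with the factor NF-Y bound nearby at CCAAT. RefSeq promoters on the GRCm38.p6 build, each reaching from upstream of the start of the gene to just past it, were listed for 4 members, Hmgcs1, Srebf2, Insig1 and Idi1. Those of Hmgcs1 (chr13:119690101-119690400, plus strand) and Srebf2 (chr15:82147019-82147318, plus strand) are shown because both hold TCACNCCA. Capitals mark TCACNCCA and CCAAT on either strand, the second of which reads ATTGG where it lies on the minus strand.
Hmgcs1: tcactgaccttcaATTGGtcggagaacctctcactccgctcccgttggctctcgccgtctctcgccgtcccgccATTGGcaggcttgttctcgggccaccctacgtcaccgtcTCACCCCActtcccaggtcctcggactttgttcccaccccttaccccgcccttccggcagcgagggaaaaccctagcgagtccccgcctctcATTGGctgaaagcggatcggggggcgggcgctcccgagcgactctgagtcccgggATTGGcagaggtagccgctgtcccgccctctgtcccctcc
Srebf2: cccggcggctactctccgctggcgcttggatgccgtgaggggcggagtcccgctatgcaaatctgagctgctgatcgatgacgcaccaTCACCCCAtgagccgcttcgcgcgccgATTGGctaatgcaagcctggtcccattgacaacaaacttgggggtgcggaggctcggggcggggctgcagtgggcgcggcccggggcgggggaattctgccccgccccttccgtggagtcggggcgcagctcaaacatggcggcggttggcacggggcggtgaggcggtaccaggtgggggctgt
The first base of TCACNCCA lay at -137 in Hmgcs1 and at -162 in Srebf2, counted from the start site. The motif was in 2 of the 4 member promoters, and on either strand in 4.36% of all 32851 listed promoters. CCAAT was in all 4 member promoters and in 37.4% of all, and the GC box GGGCGG, which lower case leaves unmarked, in all 4 and in 35.7% of all. The motifs do not overlap each other in these promoters. Insig1 and Idi1 held no TCACNCCA within this window.

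Depth ran from 13900531 to 16952639 counts per library. Mitochondrially encoded genes took 37.7% to 45.5% of METTL3 libraries, 28.6% to 32.5% of HFD+STZ libraries and 9.28% to 27.4% of chow libraries. Chow replicate 3 stood apart, with the 9.28% and with 15734 genes that had a count, against 17317 to 20769 in the other libraries, so fold changes and list medians against chow hearts that moved by over 1.5 times without it are also given without it. HFD+STZ replicate 1 lay apart from its group to a lesser degree, with the lowest cardiomyocyte and the highest fibroblast marker sum of the HFD+STZ libraries. Its chi-square per gene against the other HFD+STZ libraries was 44.2 to 52.96, against 18.1 to 22.5 among those. On this measure the METTL3 libraries also fell into pairs, replicates 1 and 3 (17.8) and replicates 2 and 4 (14.5). Across these pairs it was 35.5 to 46.4. The 5 cardiomyocyte markers summed to 25052 to 37298 CPM over all libraries, whereas 5 hepatocyte markers summed to 0.0836 to 65.7 CPM and 5 adipocyte markers to 0 to 5.08 CPM. The summed level of 5 Schwann cell markers was 12.9 to 21.5 CPM in METTL3, 7.32 to 12.7 CPM in HFD+STZ and 9.12 to 14.97 CPM in chow hearts. The 5 fibroblast markers summed to 1019 to 1514 CPM in METTL3, 741 to 1754 CPM in HFD+STZ and 1171 to 1679 CPM in chow hearts. The 5 endothelial markers summed to 971 to 1227 CPM in METTL3, 743 to 1135 CPM in HFD+STZ and 784 to 980 CPM in chow hearts. Macrophage markers are given beside Apoe. The part of these cell types in the results was not tested, and in whole hearts fewer cells of a type cannot be told apart from less RNA per cell. Mettl3 itself averaged 8.39 ± 2.19 CPM in METTL3 hearts and 6.35 ± 1.58 CPM in HFD+STZ hearts (SD, n = 4 each), and 6.11 ± 2.67 CPM in chow hearts (SD, n = 3). Its log2 fold change between METTL3 and HFD+STZ was 0.40 (95% interval -0.30 to 1.09), with an edgeR adjusted p of 0.759, so every direction for METTL3 rests on the label.

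Levels between genes were compared as CPM per kilobase of the gene length given in the table, by their median over 11 libraries. Fdft1 stood highest at 8.98, followed by Hmgcs1 at 5.92, Insig1 at 5.11 and Srebf2 at 3.62 CPM per kilobase. Idi1 at 0.486 and Sqle at 0.392 lay far lower, and Fdps at 0.0134 lowest. Neighbours among the upper 4 overlapped in their ranges: Fdft1 ran from 7.89 to 9.98, Hmgcs1 from 4.90 to 9.43, Insig1 from 4.29 to 8.15 and Srebf2 from 2.59 to 5.53 CPM per kilobase. Within a library Fdft1 lay above Hmgcs1 in 10 of 11 libraries, Hmgcs1 above Insig1 in 9 and Insig1 above Srebf2 in 10. Srebf2 was above Idi1 in all 11, while Idi1 and Sqle, which overlapped too, kept that order in 8.

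**Figure D1:**
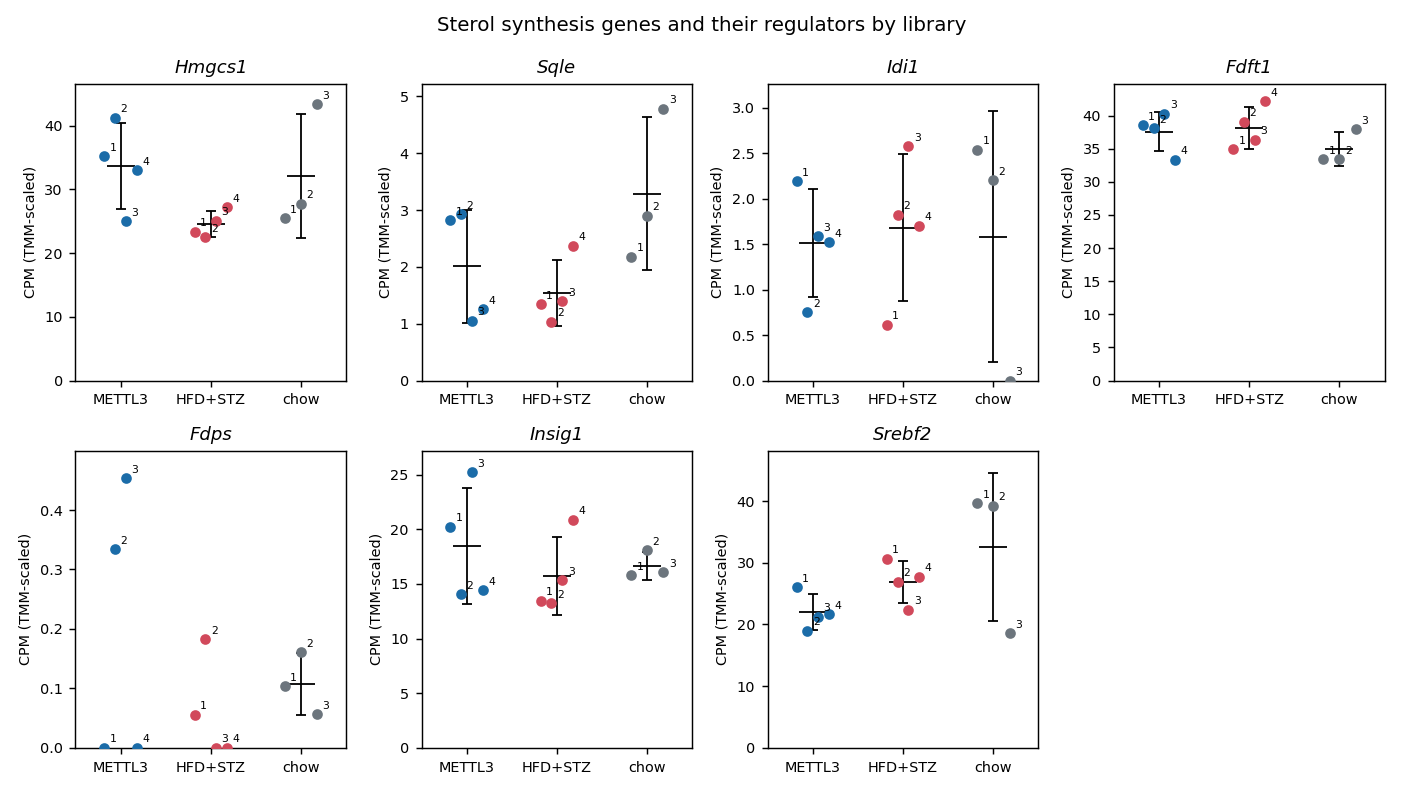
CPM (TMM-scaled, linear axis from 0) of the 7 members in each library, with METTL3 left of HFD+STZ and chow; points are libraries with their replicate numbers, and bars the mean ± SD, left out where the SD exceeds the mean. Srebf2 sits at 39.7 and 39.2 CPM in chow replicates 1 and 2 and at 18.6 CPM in chow replicate 3, and Fdft1 stays between 33.3 and 42.2 CPM.

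Hmgcs1 encodes the cytosolic synthase that makes HMG-CoA, the precursor of mevalonate (ENSMUSG00000093930, chromosome 13, 119690379 to 119708260, plus strand, mm10). It was at 35.3, 41.3, 24.99 and 33.1 CPM in METTL3 replicates 1 to 4, at 23.4, 22.5, 25.1 and 27.2 CPM in HFD+STZ replicates 1 to 4, and at 25.4, 27.7 and 43.3 CPM in chow replicates 1 to 3. METTL3 libraries lay above HFD+STZ libraries except replicate 3, and chow replicate 3 was the highest library of all. Between METTL3 and HFD+STZ hearts the log2 fold change was 0.45 (SE 0.20, 95% interval 0.02 to 0.89), with an unadjusted p of 0.0415 and an edgeR adjusted p of 0.534. Corrected for gene length and GC content it was 0.29. Between HFD+STZ and chow hearts it was -0.39 (SE 0.21), with an edgeR adjusted p of 0.468, and -0.11 without chow replicate 3.

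Idi1 encodes the isomerase that interconverts the isoprenoid building blocks isopentenyl and dimethylallyl diphosphate (ENSMUSG00000058258, chromosome 13, 8885501 to 8892451, plus strand). Counts were few, with 28, 9, 21 and 17 in METTL3 replicates 1 to 4, 11, 30, 37 and 28 in HFD+STZ replicates 1 to 4, and 49, 41 and 0 in chow replicates 1 to 3. The 0 of chow replicate 3 allows up to 0.169 CPM (3 counts, counting error only), below the 0.614 CPM of the next lowest library, and the groups overlapped throughout. Its close copy Idi2 had 0 to 4 counts, and reads common to both are uncertain. The log2 fold change between METTL3 and HFD+STZ hearts was -0.14, with a 95% interval from -1.91 to 1.63. Between HFD+STZ and chow hearts it was 0.08 (95% interval -1.81 to 1.96), and -0.50 without chow replicate 3. Intervals this wide could not show a difference of several-fold in either direction.

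Fdps makes farnesyl diphosphate, from which sterols, ubiquinone and prenyl groups branch (ENSMUSG00000059743, chromosome 3, 89093588 to 89101959, minus strand). The table gave it 0, 4, 6 and 0 counts in METTL3 replicates 1 to 4, 1, 3, 0 and 0 in HFD+STZ replicates 1 to 4, and 2, 3 and 1 in chow replicates 1 to 3. It was thus near the limit of 3 counts in every group, failed the filter on low counts and was not tested, so 6 of 7 members were. The annotated gene Gm43738 lies over it on the same strand, with 0 counts in every library, as had an annotated Fdps pseudogene. The sources used here do not give how the counting treated reads shared between such genes, so the level of Fdps is uncertain.

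Fdft1, squalene synthase, commits farnesyl diphosphate to sterols (ENSMUSG00000021273, chromosome 14, 63145150 to 63179578, minus strand). It was the steadiest member, at 38.5, 38.1, 40.2 and 33.3 CPM in METTL3 replicates 1 to 4, 35.0, 39.1, 36.4 and 42.2 CPM in HFD+STZ replicates 1 to 4, and 33.4, 33.4 and 37.9 CPM in chow replicates 1 to 3. The groups overlapped, and its coefficient of variation over the 11 libraries was 8.08%, against 22.1% to 123% for the other members. The log2 fold change was -0.02 between METTL3 and HFD+STZ hearts (95% interval -0.31 to 0.27) and 0.13 between HFD+STZ and chow hearts (95% interval -0.19 to 0.44), or 0.20 without chow replicate 3. Its 3′ end lies over that of Ctsb, a cathepsin gene on the other strand with 4392 to 8682 counts, along 774 bases. The sources used here do not give the strand setting of the counting, so some reads could belong to either gene.

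Sqle, squalene epoxidase, carries out the first oxygenation of the route and a rate-limiting step (ENSMUSG00000022351, chromosome 15, 59315077 to 59331192, plus strand). It was at 2.82, 2.93, 1.06 and 1.25 CPM in METTL3 replicates 1 to 4, at 1.34, 1.03, 1.39 and 2.37 CPM in HFD+STZ replicates 1 to 4, and at 2.18, 2.90 and 4.78 CPM in chow replicates 1 to 3, on 14 to 85 counts. HFD+STZ replicate 4 alone of its group reached into the chow range, and METTL3 libraries fell into a higher and a lower pair. Between HFD+STZ and chow hearts the log2 fold change was -1.09 (SE 0.48, 95% interval -2.13 to -0.06), with an unadjusted p of 0.0398 and an edgeR adjusted p of 0.392. Without chow replicate 3 it was -0.72. Between METTL3 and HFD+STZ hearts it was 0.39 (95% interval -0.60 to 1.38).

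Insig1 encodes the sterol-sensing anchor of SCAP and is itself an SREBP2 target (ENSMUSG00000045294, chromosome 5, 28071363 to 28078662, plus strand). It was at 20.2, 14.0, 25.2 and 14.4 CPM in METTL3 replicates 1 to 4, at 13.5, 13.3, 15.3 and 20.9 CPM in HFD+STZ replicates 1 to 4, and at 15.8, 18.1 and 16.04 CPM in chow replicates 1 to 3. All groups overlapped. The log2 fold change was 0.23 between METTL3 and HFD+STZ hearts (95% interval -0.25 to 0.71), -0.08 between HFD+STZ and chow hearts (95% interval -0.60 to 0.43) and 0.15 between METTL3 and chow hearts (95% interval -0.36 to 0.67).

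Srebf2 encodes SREBP2 (ENSMUSG00000022463, chromosome 15, 82147181 to 82205379, plus strand) and carries the microRNA gene Mir33 within it, which had 0 counts in every library. It was at 26.0, 19.0, 21.3 and 21.7 CPM in METTL3 replicates 1 to 4, at 30.7, 26.9, 22.4 and 27.8 CPM in HFD+STZ replicates 1 to 4, and at 39.7, 39.2 and 18.6 CPM in chow replicates 1 to 3. Chow replicates 1 and 2 lay above all 8 other-group libraries, and chow replicate 3 below all of them. Between METTL3 and chow hearts the log2 fold change was -0.56 (SE 0.24, 95% interval -1.09 to -0.04), with an unadjusted p of 0.0361 and an edgeR adjusted p of 0.197. Without chow replicate 3 it was -0.85, with an edgeR adjusted p of 0.0147, where 4.92% of all genes were called, and the call therefore rests on leaving that library out. Between METTL3 and HFD+STZ hearts it was -0.29 (95% interval -0.78 to 0.20), and -0.03 with length and GC offsets. Between HFD+STZ and chow hearts it was -0.27 (95% interval -0.79 to 0.25), and -0.54 without chow replicate 3.

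**Figure D2:**
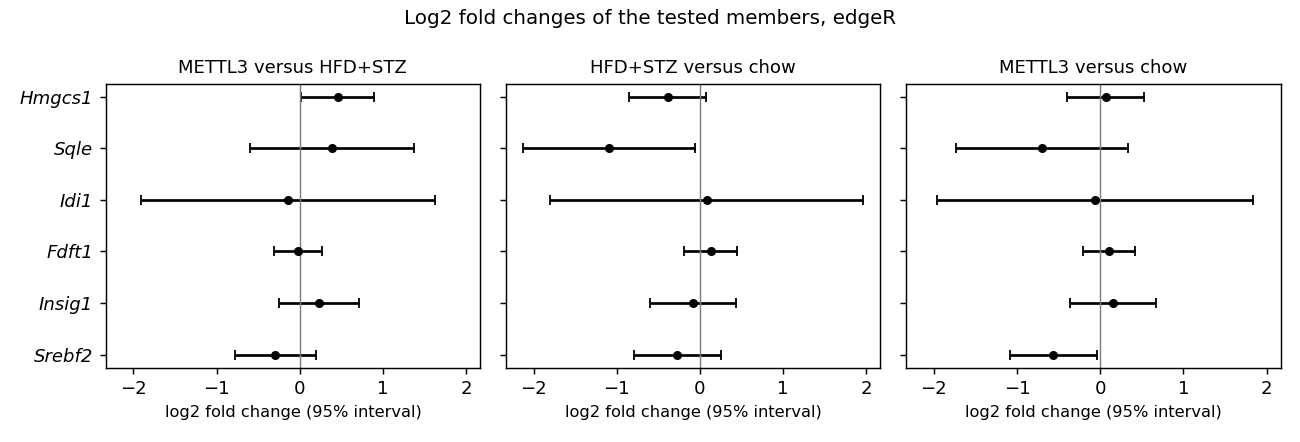
Log2 fold changes (points) with 95% intervals (bars) from edgeR for the 6 tested members, in a panel per comparison. The interval of Idi1 is the widest, at -1.91 to 1.63 for METTL3 versus HFD+STZ, and that of Fdft1 the narrowest, at -0.31 to 0.27.

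EdgeR called 0 of the 6 tested members for METTL3 versus HFD+STZ, where 0% of 14862 genes were called, and 1 member had an unadjusted p under 0.05 beside 9.06% of all genes. For HFD+STZ versus chow it also called 0 members, against 0.168% of all genes, with 1 member and 12.1% of all genes at an unadjusted p under 0.05. For METTL3 versus chow it called 0 members, against 3.2% of all genes, with 1 member and 21.7% of all genes at an unadjusted p under 0.05. DESeq2 called 0 members in each comparison as well, and gave Sqle and Idi1 no adjusted p for METTL3 versus HFD+STZ. The groups did not separate for any tested member in any comparison, where they did for 9.57%, 10.4% and 18.7% of all genes in the same order of comparisons. The comparisons share libraries, so their values are not independent.

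Across the 11 libraries, as a description, each member's log2 CPM correlated with the mean of the other members at a Pearson r between -0.32 for Hmgcs1 and 0.36 for Insig1. With chow replicate 3 left out these r ran from -0.17 for Fdps to 0.40 for Insig1, with Hmgcs1 at 0.035 and Sqle at 0.27, against -0.30 for Sqle with that library. Among all pairs, those with r furthest from 0 over 11 libraries were as follows. Hmgcs1 and Sqle went together (r 0.75, and 0.62 without chow replicate 3). Hmgcs1 went the opposite way to Idi1 (r -0.59, and -0.22 without it) and to Srebf2 (r -0.57, and -0.44 without it). Other pairs came near these, such as Fdft1 with Insig1 (r 0.48, and 0.49 without it) and with Srebf2 (r -0.46, and -0.45 without it). Idi1 had r 0.51 with Srebf2 (0.33 without it) and -0.50 with Sqle (0.079 without it). Tested genes other than the members were ranked by the likeness of their log2 CPM to the mean of all 7 members. Predicted symbols, such as Gm and Rik names, were left out. The highest r were those of Epm2a (0.90), Slc9a8 (0.89), Ttl (0.88), Ttc39a (0.87) and Sertad2 (0.86), over 11 libraries that share their depth and composition. Picking the highest among so many genes by itself favours high values, and no test was made of these r. These r were 0.81 to 0.92 over the 10 libraries without chow replicate 3. The mean gives Idi1, Sqle and Fdps, with few counts, as much weight as the others, and Fdps was not tested.

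The other 16 enzymes of the route, from acetyl-CoA thiolase to the last reductases, were all tested, and edgeR called 0 of them in each comparison. DESeq2 called Msmo1 for HFD+STZ versus chow, among 284 of all genes, and Ebp for METTL3 versus chow (adjusted p 0.0294), among 1333. For that comparison edgeR gave Ebp a log2 fold change of -1.26 (adjusted p 0.0875), or -0.46 without chow replicate 3, and called it with no filter (adjusted p 0.0253) and without chow replicate 1 (adjusted p 0.0397). For HFD+STZ versus chow 11 were below 0 and 5 above, with a median log2 fold change of -0.36 against -0.02 over all genes. Unadjusted p lay under 0.05 for 4 of them, against 12.1% of all genes. Without chow replicate 3, 12 were below 0 with a median of -0.22. For METTL3 versus HFD+STZ 10 were above 0 and 6 below, with a median of 0.09 against -0.0036 over all genes, and 0 had an unadjusted p under 0.05. For METTL3 versus chow 12 were below 0 and 4 above, with a median of -0.25 against -0.01, and 4 had an unadjusted p under 0.05, beside 21.7% of all genes. Without chow replicate 3 the median was -0.36, and 1 of the 16, Mvk (mevalonate kinase), had an unadjusted p under 0.05 (0.033).

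Msmo1, the methylsterol oxidase that strips methyl groups from lanosterol's products, had the smallest p of the route, and was chosen after its values were seen, as were Cyp51, Ebp and Acat2 (the 4 enzymes with an unadjusted p under 0.05 for HFD+STZ versus chow). It was at 7.05, 6.10, 7.55 and 6.18 CPM in METTL3 replicates 1 to 4, at 5.98, 4.80, 4.88 and 4.08 CPM in HFD+STZ replicates 1 to 4, and at 9.12, 8.01 and 17.8 CPM in chow replicates 1 to 3. No group overlapped another, with HFD+STZ hearts lowest and chow hearts highest. Between HFD+STZ and chow hearts the log2 fold change was -1.24 (SE 0.28, edgeR adjusted p 0.127), and -0.79 without chow replicate 3; DESeq2 gave an adjusted p of 0.0112. Between METTL3 and HFD+STZ hearts it was 0.45 (SE 0.27), with an edgeR adjusted p of 0.653.

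Cyp51, lanosterol demethylase, was at 9.01, 7.35, 9.29 and 7.53 CPM in METTL3 replicates 1 to 4, at 9.16, 7.24, 6.34 and 5.72 CPM in HFD+STZ replicates 1 to 4, and at 11.9, 10.3 and 14.6 CPM in chow replicates 1 to 3. Every chow library lay above the others, while the METTL3 and HFD+STZ libraries overlapped. Its log2 fold change between HFD+STZ and chow hearts was -0.78 (SE 0.22), with an edgeR adjusted p of 0.210, and -0.63 without chow replicate 3. Ebp, the sterol isomerase, was at 32.3 CPM in chow replicate 3 alone, against 6.04 to 9.95 CPM in METTL3, 7.72 to 11.1 CPM in HFD+STZ and 9.64 and 10.2 CPM in the other chow libraries. Its log2 fold change between HFD+STZ and chow hearts was -0.92, and -0.11 without that library. For Acat2, the cytosolic thiolase, it was -1.02, and -0.77 without chow replicate 3. Lss, lanosterol synthase, had a log2 fold change of -0.38 (edgeR adjusted p 0.643) in that comparison, and of -0.17 without chow replicate 3. Chow replicate 3 was the highest of 11 libraries for 9 of the 20 tested enzymes of the route and the lowest for 5, Idi1 among them.

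**Figure D3:**
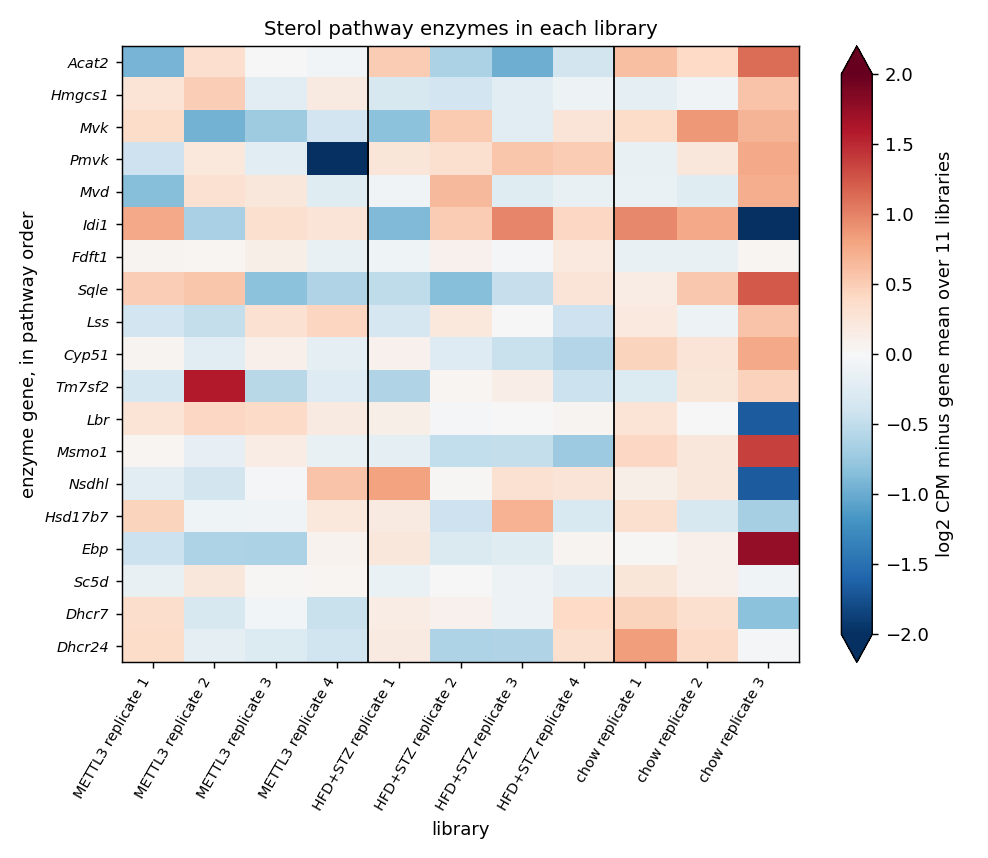
Log2 CPM minus the gene's mean over 11 libraries for 19 of the tested enzymes in pathway order (rows) in each library (columns), with METTL3 left, HFD+STZ in the middle and chow right; the colour scale ends at ±2. Chow replicate 3 holds the highest value of 9 enzymes and the lowest of 5.

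**Figure D4:**
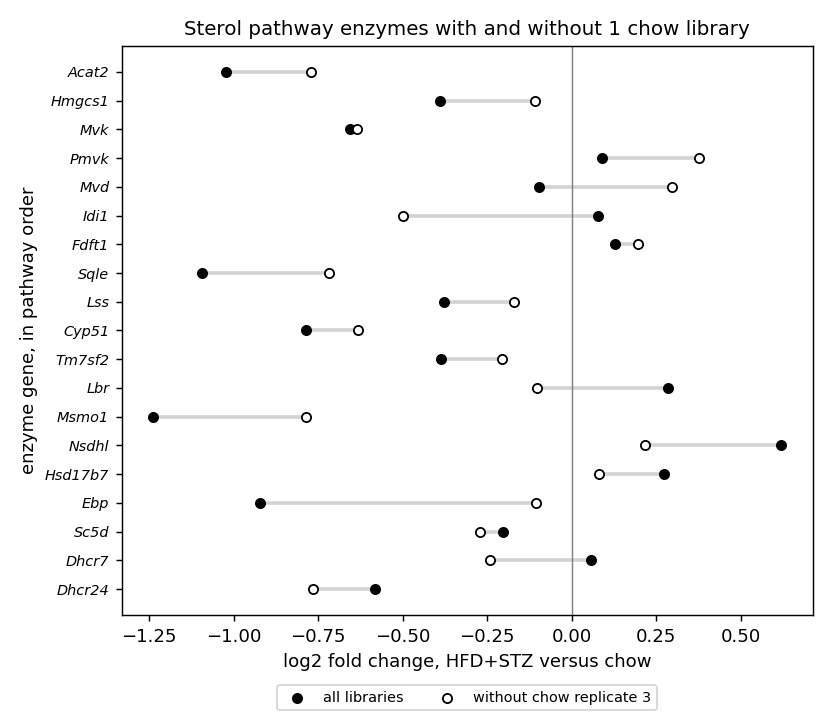
Log2 fold changes between HFD+STZ and chow hearts for 19 of the tested enzymes in pathway order, with all libraries (filled) and without chow replicate 3 (open). Values of 12 enzymes move nearer to 0, as Ebp does from -0.92 to -0.11, and 4 change sign.

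Of 14 tested genes that control SREBP2 or are its other targets, edgeR called 0 in each comparison, and 1 for METTL3 versus chow without chow replicate 3, beside 4.92% of all genes. Unadjusted p lay under 0.05 for 1 of the 14 for METTL3 versus HFD+STZ, 3 for HFD+STZ versus chow and 6 for METTL3 versus chow, beside 9.06%, 12.1% and 21.7% of all genes. DESeq2 called 3 for METTL3 versus chow, Scap, Rnf139 and Tmem97, and 0 in the other comparisons. Over all genes DESeq2 called 1333 for METTL3 versus chow, against 475 by edgeR. Scap was at 23.2, 18.2, 23.8 and 17.1 CPM in METTL3 replicates 1 to 4, at 26.5, 26.8, 28.3 and 31.8 CPM in HFD+STZ replicates 1 to 4, and at 29.9, 30.6 and 29.6 CPM in chow replicates 1 to 3. METTL3 libraries lay below all others, with a log2 fold change against HFD+STZ hearts of -0.46 (SE 0.15), an unadjusted p of 0.00991 and an edgeR adjusted p of 0.422. Insig2, the second anchor of SCAP, had log2 fold changes of 0.12 for METTL3 versus HFD+STZ and 0.08 for HFD+STZ versus chow (0.040 without chow replicate 3). The list's median was -0.05 for METTL3 versus HFD+STZ, -0.01 for HFD+STZ versus chow and -0.10 for METTL3 versus chow, against -0.0036, -0.02 and -0.01 over all genes. The medians without chow replicate 3 were -0.036 for HFD+STZ versus chow and -0.0049 for METTL3 versus chow.

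Fatty acid synthesis, the programme of the sister factor SREBP1, had 0 of 12 genes called by edgeR in each comparison. Its medians were -0.12, -0.17 and -0.24 in the same order of comparisons, against the all-gene medians above. Unadjusted p lay under 0.05 for 1, 2 and 3 of them, beside 9.06%, 12.1% and 21.7% of all genes. Without chow replicate 3 the median was -0.27 for HFD+STZ versus chow and -0.35 for METTL3 versus chow. EdgeR then called 2 genes lower for METTL3 versus chow, Fasn and Acaca (acetyl-CoA carboxylase, adjusted p 0.0159). In that fit 4.92% of all genes were called in either direction. DESeq2 called Me1 for HFD+STZ versus chow (adjusted p 0.0494) and Fasn (0.0129) and Acaca (0.0324) for METTL3 versus chow. Over all genes DESeq2 called 284 and 1333 in these comparisons. Srebf1 had a log2 fold change of 0.55 between HFD+STZ and chow hearts (SE 0.21, edgeR adjusted p 0.341), where Srebf2 had -0.27. Fasn, fatty acid synthase, was at 13.8 to 17.9 CPM in METTL3 and 17.5 to 22.4 CPM in HFD+STZ hearts, and at 41.1, 26.1 and 19.8 CPM in chow replicates 1 to 3. METTL3 libraries lay below every chow library, at a log2 difference of -0.88 (SE 0.23, edgeR adjusted p 0.0544, and 0.00941 without chow replicate 3). Scd1, a desaturase, had log2 fold changes of 0.16, -0.11 and 0.04 in the order above, and without chow replicate 3 of -0.29 for HFD+STZ versus chow and -0.15 for METTL3 versus chow. The isoprenoid branch, with 0 of 10 genes called by edgeR in each comparison and 0 at an unadjusted p under 0.05, had medians of 0.05, 0.05 and 0.13.

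The receptors and targets of LXR, the sensor of surplus sterols, held the gene of these lists that passed. Apoe, the apolipoprotein that carries cholesterol between cells, fell in METTL3 hearts against chow hearts, with 124, 142, 153 and 118 CPM in METTL3 replicates 1 to 4, 287, 248, 397 and 256 CPM in HFD+STZ replicates 1 to 4, and 316, 459 and 497 CPM in chow replicates 1 to 3. The log2 fold change between METTL3 and chow hearts was -1.65 (SE 0.22, edgeR adjusted p 0.00726). The call was lost with the sample code range as a covariate (log2 fold change -1.77, edgeR adjusted p 0.0818). It was also lost with the replicate number as a block, without (-1.58, edgeR adjusted p 0.0514) and with (-1.24, edgeR adjusted p 0.0840) offsets for gene length and GC content. In the same order these fits called 1, 5 and 11 of all genes. Between METTL3 and HFD+STZ hearts the log2 fold change of Apoe was -1.14 (SE 0.21), with an edgeR adjusted p of 0.342 and a DESeq2 adjusted p of 0.000175. Macrophages are known to make Apoe, and 5 markers of these cells summed to 52.5 to 104 CPM in METTL3, 94.05 to 186 CPM in HFD+STZ and 161 to 315 CPM in chow hearts. Of these markers edgeR called 2 lower for METTL3 versus chow, beside 1.37% of all genes. The part of these cells in the Apoe result was not tested. Of the 7 LXR genes 1 was called lower for METTL3 versus chow, where 1.37% of all genes were, and 0 in the other comparisons, where 4 had an unadjusted p under 0.05 for HFD+STZ versus chow, beside 12.1% of all genes, and 2 for METTL3 versus HFD+STZ, beside 9.06%. EdgeR called 2 lower for METTL3 versus chow when chow replicate 3 was left out, Apoe and Nr1h2 (the receptor LXR beta, adjusted p 0.0213). That fit called 4.92% of all genes in either direction.

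**Figure D5:**
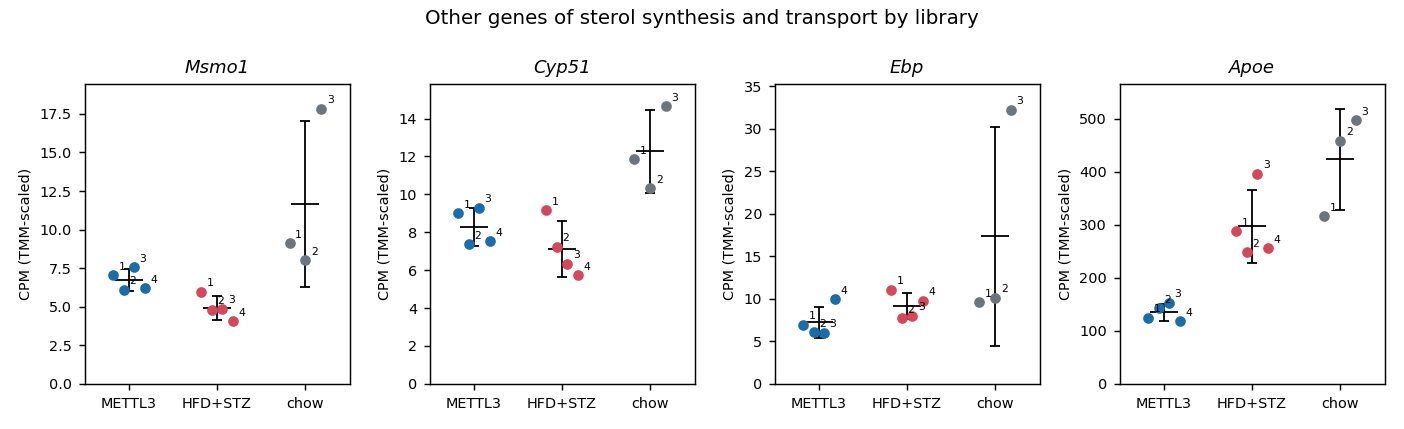
CPM (TMM-scaled, linear axis from 0) of Msmo1, Cyp51, Ebp and Apoe in each library, with METTL3 left of HFD+STZ and chow; points are libraries with their replicate numbers, and bars the mean ± SD. Msmo1 is lowest in HFD+STZ hearts, at 4.08 to 5.98 CPM, and Apoe in METTL3 hearts, at 118 to 153 CPM.

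Mylip, a ubiquitin ligase and LXR target, was at 52.8, 37.9, 48.6 and 54.7 CPM in METTL3 replicates 1 to 4, at 25.2, 51.4, 67.0 and 63.4 CPM in HFD+STZ replicates 1 to 4, and at 21.7, 22.7 and 6.14 CPM in chow replicates 1 to 3. It was named after its values were seen. Chow hearts lay below both other groups, and the log2 fold change between HFD+STZ and chow hearts was 1.62 (SE 0.42), with an edgeR adjusted p of 0.166 and a DESeq2 adjusted p of 0.00587. It was 1.22 without chow replicate 3 (edgeR adjusted p 0.119) and 1.85 without HFD+STZ replicate 1 (edgeR adjusted p 0.0426). EdgeR also called it with no filter (adjusted p 0.00504), among 190 of all genes, and with both these libraries out (0.00103), among 493. Between METTL3 and chow hearts the log2 fold change of Mylip was 1.52 (SE 0.41, edgeR adjusted p 0.0650, DESeq2 adjusted p 0.00570). EdgeR called Mylip there with no filter, without HFD+STZ replicate 1 and with both libraries out. Abca1, which exports cholesterol, was at 45.0, 44.8, 47.1 and 65.0 CPM in METTL3 replicates 1 to 4, at 36.6, 34.7, 50.04 and 45.2 CPM in HFD+STZ replicates 1 to 4, and at 30.6, 31.2 and 30.2 CPM in chow replicates 1 to 3. Chow libraries were again the lowest, and METTL3 against chow hearts had a log2 fold change of 0.72 (SE 0.19, edgeR adjusted p 0.0568, DESeq2 adjusted p 0.0186).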

How the data were processed

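RNA of 11 whole-heart libraries was measured by sequencing after ribosomal RNA depletion, per the labels' protocols. The authors deposited whole-number counts per gene with gene coordinates and lengths. FastQC, Salmon and the mm10 build appear in the submitters' processing notes; no source used here gives versions, an annotation release or a strand setting. Of 54532 identifiers 53499 have the same coordinates in GENCODE M21.

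The test was that of edgeR 4.0.16 (R 4.3.3) on these counts: TMM scaling, filterByExpr (minimum count 10, total 15), group means of all 11 libraries, quasi-likelihood test, Benjamini-Hochberg adjustment over 14862 genes, threshold 0.05. Standard errors come from the coefficient and its F statistic. Log2 CPM used a prior count of 2. Intervals and limits cover counting error and, for fold changes, the modelled spread. The test was checked on simulated data, where 1.92% to 4.20% of its calls were false. It recovered 25% to 33% of changes of 1 in log2 and 74% to 81% of changes of 2. Most changes of 1 in log2 were thus missed in the simulation. Its libraries were drawn independently around common means, with no effect of the code range and no library apart as chow replicate 3 was. The chi-square per gene of that library against the other chow libraries was 298 and 338. The simulated rates of false calls and of recovery may therefore not hold for the real libraries.

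Groups follow the sample titles. Nothing says that replicates are separate animals, so p-values reflect only how these samples vary, possibly for technical reasons; no pair within a group was a duplicate. The members and lists were chosen with earlier results of these data known. All members are named, with Mettl3, 7 related genes, list genes past the threshold and the 5 genes most like the members' mean; a few other genes are not reported here. Alternatives were DESeq2 1.42.0, its size factors, no filter, only the groups compared, a replicate block, the range of the sample codes (25 to 33 against 78 to 98), offsets for gene length and GC content of the longest transcript (loess, span 0.5), and leaving out each library. The upper code range held every chow library (94, 96 and 98), with METTL3 replicate 4 (78) and HFD+STZ replicate 1 (83). In comparisons with chow hearts, group and code range therefore cannot be fully told apart. A fit without both chow replicate 3 and HFD+STZ replicate 1 was chosen after seeing the data.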

Additional observations from a re-analysis of the deposited data

Results flagged for a closer look

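Abca1, the cholesterol exporter, stood at 65.0 CPM in METTL3 replicate 4, far above the 44.8 to 47.1 CPM of the other 3 METTL3 libraries. The gap made up 0.885 of the range of the group, above Dixon's 95% critical value for 4 samples. It was 1 of 54 groups checked, and chance marks about 1 in 20.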

How the results depend on the processing

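No member passed the threshold for METTL3 versus HFD+STZ or HFD+STZ versus chow under any alternative run. For METTL3 versus chow 1 member, Srebf2, passed without chow replicate 3 and with that library and HFD+STZ replicate 1 both left out (0 to 1 over libraries left out singly), where 4.92% of all genes passed without chow replicate 3 against 3.2% with it. Genes past the threshold for METTL3 versus HFD+STZ numbered 0, but 70 with DESeq2 and 403 with both libraries out. For HFD+STZ versus chow they numbered 25, but 284 with DESeq2, 190 with no filter, 0 with only the groups compared, 1 with the sample code range as a covariate, 58 with length and GC offsets, 493 with both libraries out, and 1 to 215 with single libraries left out. For METTL3 versus chow they numbered 475, but 1333, 747, 54, 1, 193 and 1258 in the same order, and 34 to 750 with single libraries left out. With the replicate number as a block they numbered 2 for HFD+STZ versus chow and 5 for METTL3 versus chow, and 3 and 11 with the block and the offsets. Same-numbered libraries correlated at -0.23 to 0.16 in their deviations from the group means, with 2 of 10 pairs over 0.1. Counted over every other group that held the number, 0 libraries were closest to their own number. Within a single other group some were, though most were not. METTL3 replicates 2 and 3 were closest to HFD+STZ replicates 2 (0.071) and 3 (0.13), and METTL3 replicate 1 to chow replicate 1 (0.16). Whether the numbers pair samples is not stated. Signs turned as follows, all as log2 fold changes. For METTL3 versus HFD+STZ the offsets gave 0.11 for Fdft1 and 0.11 for Srebf1, and with the block 0.11 and 0.13; codes 25 to 33 alone gave -0.034 for Insig2 and -0.10 for Lss. For HFD+STZ versus chow the code range gave -0.57 for Idi1, -0.021 for Fdft1, -0.0071 for Insig2 and 0.0092 for Scd1, the offsets with the block -0.0012 for Insig2, and both libraries out -0.22 for Idi1 and -0.38 for Mettl3. For METTL3 versus chow the offsets gave -0.20 for Hmgcs1 (-0.19 with the block) and -0.034 for Scd1, the block 0.054 for Idi1, the code range -0.045 for Fdft1 and -0.14 for Insig1, and both libraries out -0.14 for Scd1. Single libraries left out gave, for METTL3 versus HFD+STZ, -0.43 to 0.14 for Idi1, -0.070 to 0.031 for Fdft1, -0.026 to 0.56 for Acat2, -0.33 to 0.056 for Mylip, -0.27 to 0.040 for Srebf1 and -0.022 to 0.28 for Lss. For HFD+STZ versus chow they gave -0.50 to 0.59 for Idi1, -0.24 to 0.0051 for Insig1, -0.0077 to 0.18 for Insig2, -0.29 to 0.050 for Scd1 and -0.26 to 0.29 for Mettl3. For METTL3 versus chow they gave -0.078 to 0.33 for Hmgcs1, -0.65 to 0.43 for Idi1, -0.035 to 0.26 for Insig1 and -0.15 to 0.19 for Scd1. The causes were not tested. Depth limits Idi1, Sqle and Fdps, with at most 49, 85 and 6 counts per library.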
